A study of Mus musculus with 2 samples.

Results

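Near-miss peaks are CTCF peaks called in one cell type whose closest peak in the other cell type lies beside them without touching them. They were taken from lists of CTCF peaks of mouse embryonic stem (ES) cells and mouse embryonic fibroblasts (MEFs). Members were chosen by position and score. A peak was a member when it lay on an autosome, had a deposited score below 400, and had its nearest start in the other list 400 to 2000 bp away. This gave 4757 of the 44424 ES peaks and 4933 of the 53736 MEF peaks, together 9690 of 98160 peaks (9.87%). They were selected on measured values, the distance between the lists and the score, so the numbers of members are a description, and what follows asks what else they share and how often the same spacing arises when one list is displaced.

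CTCF is a zinc-finger protein that binds a long DNA motif and, together with cohesin, anchors chromatin loops and insulates neighbouring domains. Binding sites often come in groups, and at domain borders several sites can lie within a short stretch of DNA. Sonicated chromatin gives each site a signal wider than the motif, so a peak caller may place 1 broad signal as 1 peak or as several.

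The study mapped CTCF by chromatin immunoprecipitation and sequencing, with 1 library per cell type and the same antibody in both. ES cells, pluripotent cells of the early embryo, carried the genetic background labelled Bl3.10 and C57BL. MEFs, connective-tissue cells grown from later embryos, carried the background labelled C57BL6. Both were grown in the same serum-containing medium, with no other treatment named, and differences of cell type cannot be told apart from those of background or of library. The lists hold no measure of transcripts, so markers of either cell type could not be checked. Without replicates no p-value was computed, and every interval below is a 95% interval that covers counting error only and treats peaks as independent. The number of reads behind each list is unknown, and an input background was not analysed here. Positions are on the mm9 build and count from 1.

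The rule left most peaks out on either side. Of the 43401 autosomal ES peaks below the score limit, 11297 overlapped a MEF peak, 12 lay exactly 399 bp from one (touching it without overlap), and 27335 had none within 2000 bp. Of the 52135 such MEF peaks, 11341 overlapped an ES peak, 10 lay 399 bp away and 35851 had none within 2000 bp. Few peaks lay exactly at the edges of the rule. In the ES list 5 peaks lay at 400 bp, 2 at 2000 bp and 1 at 2001 bp, and the MEF list gave the same 3 numbers. The score limit removed almost nothing. The highest ES score inside it was 389, on chromosome 3 at 88271038 to 88271436, and the next near miss above it had a score of 408, on chromosome 4 at 151547118 to 151547516. No MEF near miss scored above 344.

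Near misses were crowded toward the short end of the range. The median distance was 1020 bp for ES members (quartiles 669 and 1459 bp) and 1023 bp for MEF members (670 and 1453 bp). There were 928 ES members at 400 to 599 bp, 738 at 600 to 799 bp and 639 at 800 to 999 bp. The number then fell from 603 at 1000 to 1199 bp to 443 at 1800 to 2000 bp. The MEF members ran in parallel, from 939 in the shortest step to 455 in the last. No side was preferred. The partner lay at the higher coordinate for 2401 ES members (50.5%) and for 2463 MEF members (49.9%).

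The number fell with distance on both sides of the 400 bp edge that separates an overlap from a near miss. In steps of 50 bp, the nearest MEF start lay 200 to 249 bp away for 466 ES peaks, 300 to 349 bp away for 319 and 350 to 399 bp away for 295. Just beyond the edge there were 250 ES peaks at 400 to 449 bp and 240 at 450 to 499 bp. The MEF list went from 296 peaks at 350 to 399 bp to 261 at 400 to 449 bp. The numbers showed no step at the limit, which lies just above the width of a peak.

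To see how often this spacing arises between peaks that merely share a region, the other list was moved by 10 kb or by 20 kb toward higher coordinates and the nearest starts were found again. By plain number the difference was small. As deposited, 11.0% of the eligible ES peaks were near misses, and after the 10 kb move 10.4% were (4757 against 4534 peaks). For MEF peaks the shares were 9.46% and 9.05% (4933 against 4719). After the 20 kb move the numbers were 4374 and 4469. A 10 kb move toward lower coordinates gave 4687 and 4547, and the ES ratio of plain numbers was then 1.01 (0.975 to 1.06). The plain numbers set unlike lists side by side, because 11297 ES peaks were already taken up by an overlap in the deposited lists and only 1398 after the 10 kb move.

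Counted over the peaks that could still become near misses, those with no start of the other list nearer than 400 bp, near misses were more frequent in the deposited lists. Of 32092 such ES peaks 14.8% (14.4 to 15.2) had their nearest MEF start within 2000 bp, against 10.8% (10.5 to 11.1) of 41997 after the 10 kb move. This is a rate 1.37 times as high (1.32 to 1.43). For MEF peaks the rates were 12.1% (11.8 to 12.4) and 9.30% (9.05 to 9.56), a ratio of 1.30 (1.25 to 1.35). Against the 20 kb move the ratios were 1.43 (1.37 to 1.49) and 1.38 (1.32 to 1.44).

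By nearest start, the excess was largest at the short distances. At 400 to 599 bp, the ES rate per 200 bp was 2.01 times that after the 10 kb move (1.81 to 2.23), and the MEF rate 1.68 times (1.52 to 1.86). At 1000 to 1199 bp the ratios were still 1.46 (1.30 to 1.64) and 1.48 (1.32 to 1.66). Beyond 1200 bp they dropped to between 1.10 and 1.19 for ES members and between 0.996 and 1.16 for MEF members. Beyond the range, at 2001 to 2199 bp, they were 1.19 (1.05 to 1.35) and 1.15 (1.01 to 1.31). From 2200 to 4000 bp the ES ratios lay between 0.884 and 1.17 and the MEF ratios between 0.783 and 1.06. The intervals there included 1 except for ES at 2400 to 2599 bp (1.17, 1.03 to 1.34) and MEF at 3200 to 3399 bp (0.783, 0.677 to 0.904). Against the 20 kb move, the ES ratios from 2200 to 4000 bp lay between 0.968 and 1.20 and the MEF ratios between 0.932 and 1.12. With that move the ES intervals lay above 1 in each step from 2400 to 2999 bp. By plain number, 515 more ES members lay at 400 to 999 bp than after the 10 kb move and 292 fewer at 1000 to 2000 bp. For MEF members there were 441 more and 227 fewer. Over the peaks with no nearer start, the rate at 1000 to 2000 bp was nevertheless 1.21 times (ES) and 1.17 times (MEF) the displaced one. When all pairs of starts were counted in place of the nearest, the ratio was 2.52 (2.31 to 2.76) at 400 to 599 bp. It was still 1.54 (1.40 to 1.70) at 1800 to 2000 bp and 1.52 (1.38 to 1.68) at 2001 to 2199 bp. Farther out it stayed above 1 in each step up to 5999 bp, though some intervals included 1. It was highest there at 2400 to 2599 bp (1.44, 1.30 to 1.59) and lowest at 4000 to 4199 bp (1.02, 0.923 to 1.13). The all-pairs excess was thus not confined to the range of the rule.

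**Figure D1:**
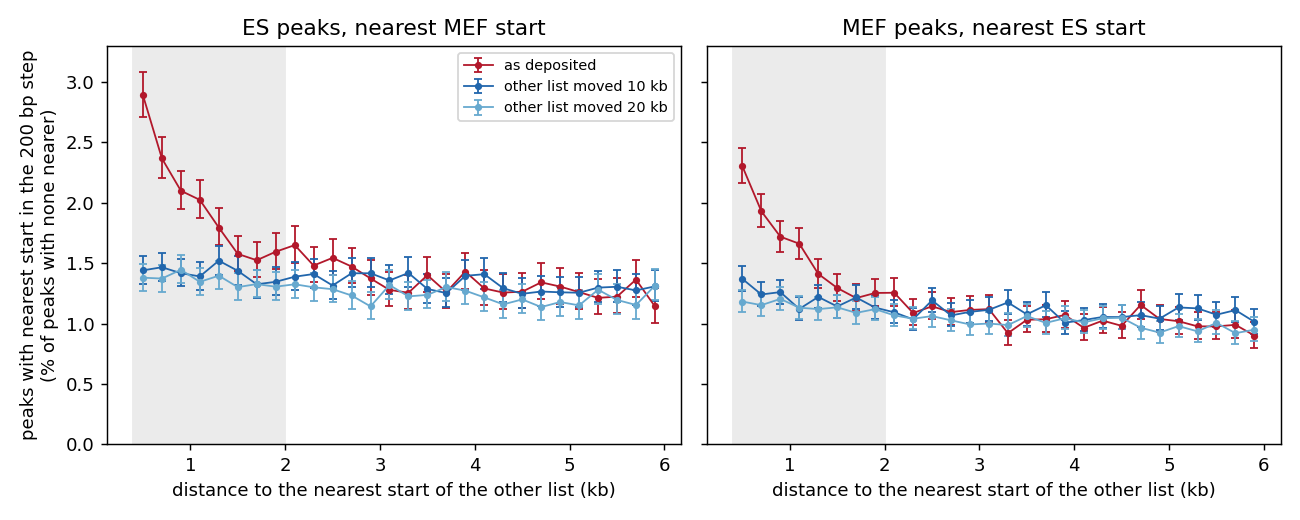
Share of peaks whose nearest start in the other list falls in each 200 bp step, among peaks with none nearer, for ES peaks (left) and MEF peaks (right); bars are 95% Wilson intervals and the grey band marks 400 to 2000 bp. The deposited lists start at 2.89% (ES) and 2.30% (MEF) at 400 to 599 bp, against 1.44% and 1.37% after the 10 kb move, and come nearer to the moved lists toward 2000 bp, where the rate at 1800 to 2000 bp is 1.59% (ES) and 1.25% (MEF) against 1.35% and 1.13%.

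A near miss can stand beside a site that both cell types share, or it can join peaks called in 1 cell type each. These arrangements were separated by asking whether the partner peak itself overlapped a peak of the first list. Of the ES members, 1473 (31.0%, 29.7 to 32.3) had a shared MEF partner, against 21.9% of all autosomal MEF peaks. Of the MEF members, 1620 (32.8%, 31.5 to 34.2) had a shared ES partner, against 26.2% of all autosomal ES peaks. Partners met after the 10 kb move were shared at 26.2% (25.0 to 27.5) and 27.9% (26.6 to 29.2), with sharing taken from the deposited positions. Shared partners were thus more frequent among near misses than among displaced neighbours, by 4.74 and 4.97 percentage points. The other moves, by 10 kb downward, 20 kb either way and 50 kb upward, gave 24.9% to 27.5% for ES members and 28.2% to 29.6% for MEF members.

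Shared partners were most frequent at the shortest distances. At 400 to 599 bp 35.9% of ES members (32.9 to 39.0) and 37.0% of MEF members (33.9 to 40.1) had one. At 1800 to 2000 bp the shares were 28.4% (24.4 to 32.8) and 27.9% (24.0 to 32.2). The displaced lists showed a smaller difference for ES peaks, from 29.9% in the shortest step to 26.2% in the last, and for MEF peaks from 31.1% to 29.4%.

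In members of this kind a shared site had a second peak beside it that was called in 1 cell type only. The second peak usually ranked lower than the shared site did in the same list. Scores were compared only as percentiles, because the score is not defined. A percentile is the rank of a peak's score in its list, with ties given their mean rank, as a percentage of the list. For ES the median percentile was 44.4 for the near-miss peak and 60.5 for the ES peak at the shared site, and the site ranked higher in 908 of 1473 cases (61.6%, 59.1 to 64.1). For MEF the medians were 44.8 and 72.4, and the site ranked higher in 1069 of 1620 cases (66.0%, 63.6 to 68.3). The median distance between both peaks was 970 bp in ES cells and 984.5 bp in MEFs. The percentiles of these sites were close to those of all overlapping peaks of the list, with a median of 59.6 for ES and 71.4 for MEF.

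Most members had no shared peak of either list within 2 kb. They numbered 3129 in ES cells (65.8%) and 3160 in MEFs (64.1%). Among all eligible peaks without overlap the share was larger, 30444 of 32104 in ES cells and 38993 of 40794 in MEFs. The rule bears on this, since it places a peak of the other list within 2000 bp of each member. A further 155 ES and 153 MEF members had an unshared partner but another shared peak within 2 kb. To follow this larger class, all pairs were counted between ES-only and MEF-only peaks that had no shared peak within 2 kb. There were 3312 such pairs 400 to 2000 bp apart, against 2309 after the 10 kb move of the MEF list, a ratio of 1.43 (1.36 to 1.51). Against the 20 kb move, which left 2266 pairs, the ratio was 1.46 (1.39 to 1.54). The excess of close spacing was therefore also present away from shared sites.

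The ratio for these pairs was highest in the shortest step and stayed above 1 to the end of the range. At 400 to 599 bp 543 pairs were found and 281 after the 10 kb move, a ratio of 1.93 (1.67 to 2.24). At 1000 to 1199 bp there were 440 and 280 pairs, a ratio of 1.57 (1.35 to 1.83). At 1800 to 2000 bp there were 357 and 281 pairs, a ratio of 1.27 (1.08 to 1.49). Ratios of that size also occurred beyond the range. From 2001 to 5999 bp they lay between 0.896 (0.759 to 1.06), at 3200 to 3399 bp, and 1.28 (1.08 to 1.52), at 5400 to 5599 bp.

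Pairs within 1 list gave a yardstick for the same class of peaks. ES-only peaks with no shared peak near formed 1505 pairs with each other at 400 to 2000 bp, 1.41 times the number after a 10 kb move of the list against itself (1.32 to 1.51). MEF-only peaks formed 2077 pairs, 1.39 times that number (1.31 to 1.47). The ratio for pairs across the cell types, 1.43, lay inside both intervals. Against the 20 kb move the ratio was 1.43 within the ES list (1.33 to 1.52) and 1.57 within the MEF list (1.48 to 1.66), the latter above the 1.46 across the cell types. The difference itself was not tested.

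**Figure D2:**
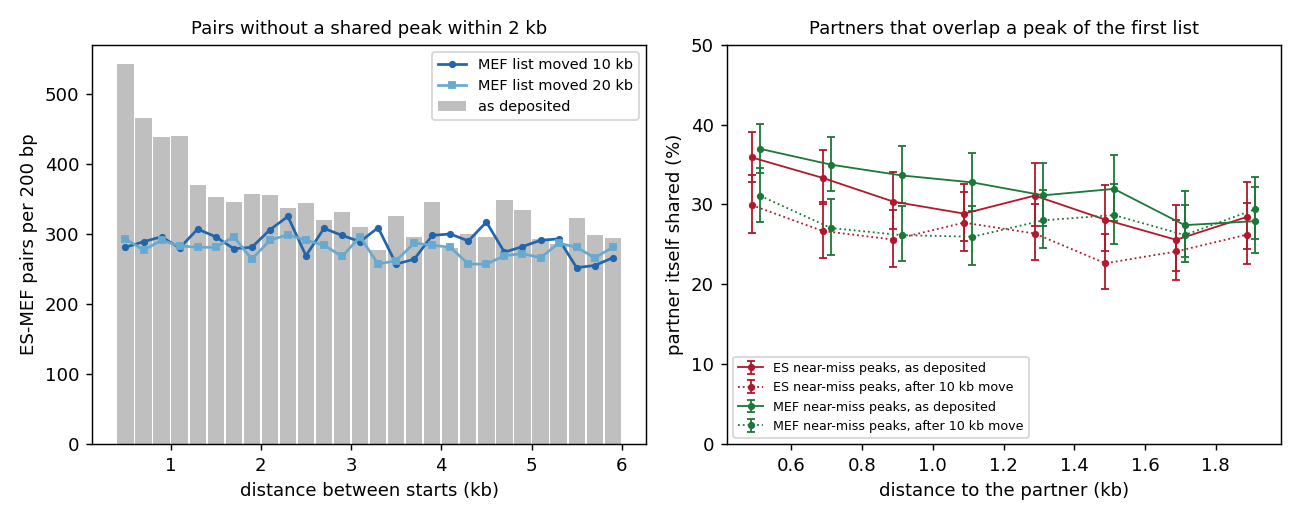
Left, number of ES-MEF pairs per 200 bp of distance between starts for peaks without overlap and without a shared peak within 2 kb, as deposited (bars) and after moving the MEF list (lines). Right, percentage of partners that are themselves shared, by distance, for ES and MEF near-miss peaks as deposited (solid) and after the 10 kb move (dotted), with 95% Wilson intervals; 543 deposited pairs stand against 281 moved ones in the first step, and the shared share is 35.9% (ES) and 37.0% (MEF) there.

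Most near misses were reciprocal, a share that cannot be set directly against that of displaced neighbours. In 2984 pairs the ES and the MEF peak were each the nearest of the other, and both were members, so that 5968 of the 9690 members (61.6%) stood in such a pair. This was 62.7% of ES members (61.3 to 64.1) and 60.5% of MEF members (59.1 to 61.8), against 83.8% of displaced near misses in either list after the 10 kb move (82.7 to 84.9 for ES and 82.7 to 84.8 for MEF). None of the members with a shared partner could be in one, since the partner's nearest peak is then the one overlapping it. After the 10 kb move only 1398 ES and 1386 MEF peaks overlapped, so this bar held for far fewer peaks. Among members with no shared peak within 2 kb, 91.7% (ES) and 90.9% (MEF) were reciprocal. With an unshared partner but another shared peak within 2 kb, the shares were 74.2% and 73.9%. More than 1 peak of the other list lay within 400 to 2000 bp of 707 ES members (14.9%) and 725 MEF members (14.7%).

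The median scores of near-miss peaks were close to those of peaks far from the other list and below those of overlapping peaks. ES members had a median score of 66 (quartiles 43 and 93), at a median percentile of 45.5 (44.4 to 46.6). ES peaks over 2000 bp from a MEF peak had a median percentile of 47.7, and overlapping ES peaks 59.6. The intervals of the ES members and of the distant peaks (46.6 to 47.7) met at 46.6. MEF members had a median score of 46 (quartiles 34 and 64), at a percentile of 45.8, the same as that of distant MEF peaks, while overlapping MEF peaks stood at 71.4.

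Both ends of the score range held small departures from the distant peaks. The lowest-scoring 10% of the ES list held 12.7% of ES members (11.7 to 13.6) and 10.1% of distant ES peaks (9.73 to 10.4). In MEFs the shares in the lowest 10% were 10.7% and 10.5%, with overlapping intervals. The highest-scoring 10% held 7.48% of ES members (6.77 to 8.27) and 6.60% of distant peaks (6.31 to 6.90), against 18.2% of overlapping peaks. For MEFs these shares were 7.44% (6.74 to 8.21), 5.53% (5.29 to 5.77) and 24.9%.

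**Figure D3:**
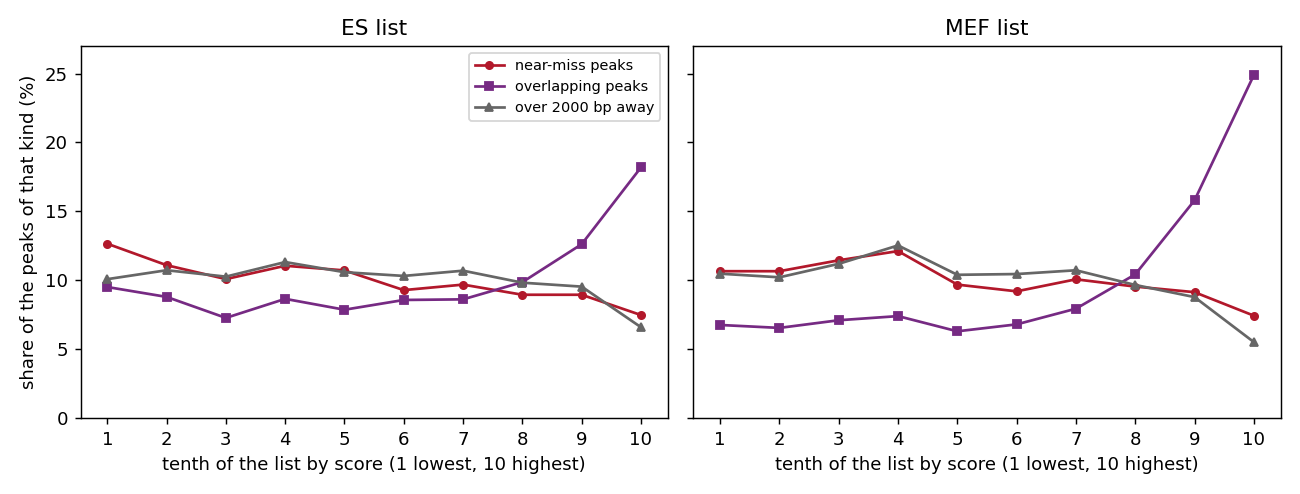
Share of near-miss, overlapping and distant peaks (over 2000 bp from the other list) in each 10% step of their list by score, for ES cells (left) and MEFs (right). Overlapping peaks reach 18.2% (ES) and 24.9% (MEF) in the highest step, where near-miss peaks stand at 7.48% and 7.44% and distant peaks at 6.60% and 5.53%.

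Over the peaks with no nearer start, the rate of close spacing exceeded the displaced rate at every level of score. With the ES list cut by score into 5 equal groups, the rate of near misses was 1.43 times that after the 10 kb move in the lowest group (1.31 to 1.56) and 1.29 times in the highest (1.17 to 1.42). In the MEF list it was 1.31 (1.20 to 1.42) in the lowest and 1.35 (1.23 to 1.48) in the highest. The intervals of the lowest and highest group overlapped in both lists. By plain number the highest group held fewer near misses than after the move, 782 against 975 (ES) and 803 against 1027 (MEF). The other groups held more. In the highest group the rates were taken over 5197 and 8373 ES peaks, and over 5847 and 10099 MEF peaks.

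The scores of the peaks in a reciprocal pair were almost unrelated. Spearman's rho between ES and MEF scores was 0.032 across the 2984 pairs and 0.023 across 3798 reciprocal pairs formed after the 10 kb move. Across 10779 reciprocal overlapping pairs it was 0.16. These are descriptions across positions that share a pair of libraries. In 149 of the reciprocal near-miss pairs (4.99%) both peaks ranked in the highest 25% of their list, against 7.27% of the displaced pairs and 19.8% of the overlapping ones. The displaced pairs are an unlike set. They could hold peaks that overlap in the deposited lists and rank higher, which near-miss pairs cannot. Their median percentiles were 49.8 (ES) and 51.2 (MEF), against 45.5 and 45.8 in the near-miss pairs.

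Near-miss peaks had more peaks around them than distant peaks and than all eligible peaks, which follows at least in part from the rule. Within 100 kb of an ES member there were a median of 16 other peaks of both lists (quartiles 11 and 24). The median was 11 (6 and 17) for distant ES peaks, 16 for overlapping ones and 13 for all eligible ES peaks. Peaks that met a displaced MEF peak at 400 to 2000 bp had 18. For MEF members the median was 16, against 9 for distant MEF peaks, 11 for all eligible MEF peaks and 18 after displacement. These medians compare unlike sets. By the rule a member has a peak of the other list within 2000 bp, and a distant peak has none. A member's own partner counts among its neighbours and a displaced partner need not. The displaced set also held peaks that overlap in the deposited lists, which members cannot. Only 3105 of its 4534 ES peaks and 3340 of its 4719 MEF peaks were without overlap.

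The ratio of the rates was of similar size in groups of peaks with few and with many neighbours. With ES peaks divided into 5 equal groups by the number of peaks within 100 kb, 4.63% (4.18 to 5.12) of the peaks that could be members were near misses in the sparsest group and 28.6% (27.4 to 29.8) in the densest. After the 10 kb move these shares were 3.32% (2.96 to 3.72) and 20.5% (19.6 to 21.4). The ratio of the rates was 1.40 in the sparsest group and 1.40 in the densest, with intervals of 1.19 to 1.64 and 1.30 to 1.50. Between them it ran from 1.46 to 1.53. In the MEF list the 5 ratios lay between 1.36 and 1.51. By plain number the densest group held fewer near misses than after the move, 1523 against 1659 (ES) and 1800 against 1986 (MEF). The other groups held more. A member's own partner counts toward its group and a displaced partner need not, so the groups are not alike on either side. How far this shaped the ratios was not tested.

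**Figure D4:**
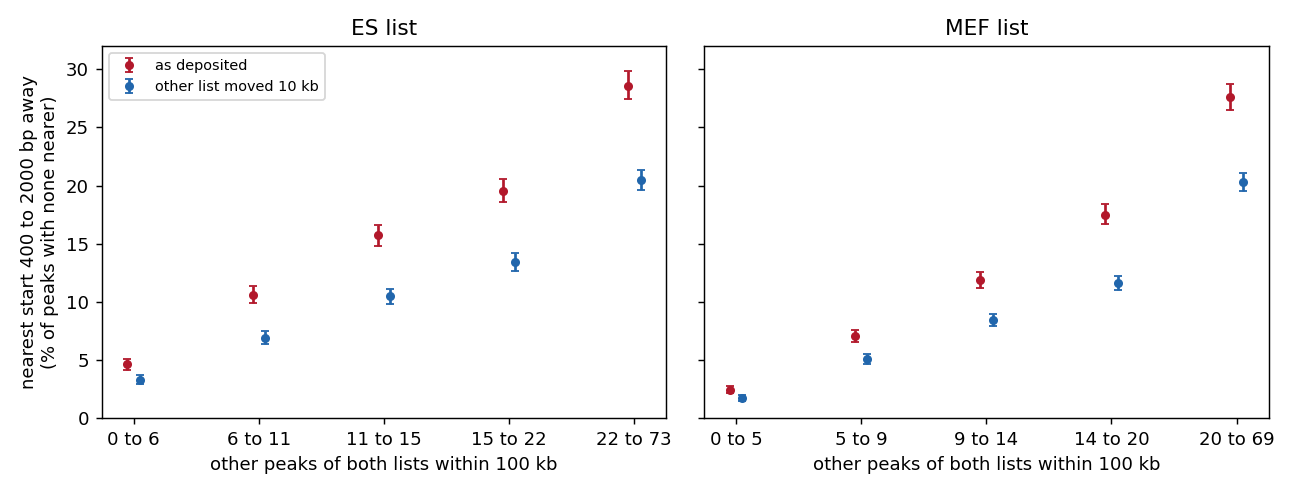
Percentage of peaks whose nearest start in the other list is 400 to 2000 bp away, among peaks with none nearer, in 5 equal groups of each list by the number of other peaks of both lists within 100 kb, as deposited and after the 10 kb move; bars are 95% Wilson intervals. The share rises from 4.63% to 28.6% in ES cells and from 2.43% to 27.6% in MEFs, and the deposited values lie above the moved ones in every group.

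On each of the 19 autosomes the rate of near misses exceeded that after the 10 kb move in both lists. The lists are not independent here, because 5968 of the 9690 members stood in reciprocal pairs that both lists count. The ratio to the 10 kb move ran from 1.19 on chromosome 15 to 1.61 on chromosome 12 for ES peaks, and its interval lay above 1 on 17 chromosomes. For MEF peaks it ran from 1.11 on chromosome 10 to 1.55 on chromosome 7, with intervals above 1 on 14. Chromosome 11 had the highest share of near misses among the peaks that could be members, 18.5% in ES cells and 16.9% in MEFs. The lowest shares were 11.5% on chromosome 14 for ES peaks and 9.01% on chromosome 3 for MEF peaks.

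Many members also had a neighbour in their own list. Another ES peak started within 2 kb of 2053 ES members (43.2%, 41.8 to 44.6), and another MEF peak within 2 kb of 2231 MEF members (45.2%, 43.8 to 46.6). Part of this follows from the definition, because a shared partner places a peak of the same list beside the member. Among members with a shared partner the share was 98.6% (ES) and 98.8% (MEF). Among those with no shared peak within 2 kb it was 14.3% (13.2 to 15.6) and 15.3% (14.1 to 16.6), against 10.9% (10.5 to 11.2) and 11.4% (11.1 to 11.8) of the distant peaks. It was higher among all eligible peaks, at 19.5% (ES) and 18.9% (MEF), and among near misses after the 10 kb move, at 25.4% and 26.7%. Both of those sets include overlapping peaks, where it was 30.4% and 30.9%.

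Joining all autosomal peaks of both lists whose neighbouring starts were at most 2000 bp apart gave 5466 runs with at least 1 member. The simplest form was a run of only 1 ES and 1 MEF peak. There were 2212 of these (40.5% of runs), against 2088 runs of 3 peaks and 618 of 4, and they held 45.7% of the members. Runs of 3 or 4 peaks held 40.9% of the members, and 548 runs of 5 or more peaks held 13.5%. A shared peak was present in 2680 runs (49.0%). After the 10 kb move there were 2706 runs of only 1 ES and 1 MEF peak at this spacing, more than in the deposited lists. The plain ratio was 0.817 (0.772 to 0.865). It depended on what the number was set against. Per ES peak with no start of the other list nearer than 400 bp, the rate used above, it was 1.07 (1.01 to 1.13), and per such MEF peak 1.02 (0.961 to 1.08). Per product of both numbers of peaks, a measure used only here, it was 1.33 (1.26 to 1.41).

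The run with most members was on chromosome 11 from 94797428 to 94815666. It spanned 18.2 kb and held 18 ES and 22 MEF peaks, of which 28 were shared and 12 were near misses. Shared sites and 1-list peaks were interspersed along it. The near-miss peaks of this run included an ES peak at the 96.2 percentile, exactly 400 bp from its MEF partner, and a MEF peak at the 2.75 percentile, 633 bp from its partner. On chromosome 4 from 140269707 to 140280203 a run of 17 peaks held 10 near misses and 7 shared peaks. There the ES peak starting at 140277955 and the MEF peak starting at 140278389 were 434 bp apart and each the nearest of the other, at percentiles of 47.7 and 28.6.

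The next run covered 24979184 to 24992490 of chromosome 16 with 12 ES and 18 MEF peaks. All 7 of its near misses were MEF peaks, and the other 23 peaks were shared. Other runs also held 7 members and fewer peaks. One of them, on chromosome 7 from 66560344 to 66567140, had 3 ES and 6 MEF peaks and no shared peak at all.

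**Figure D5:**
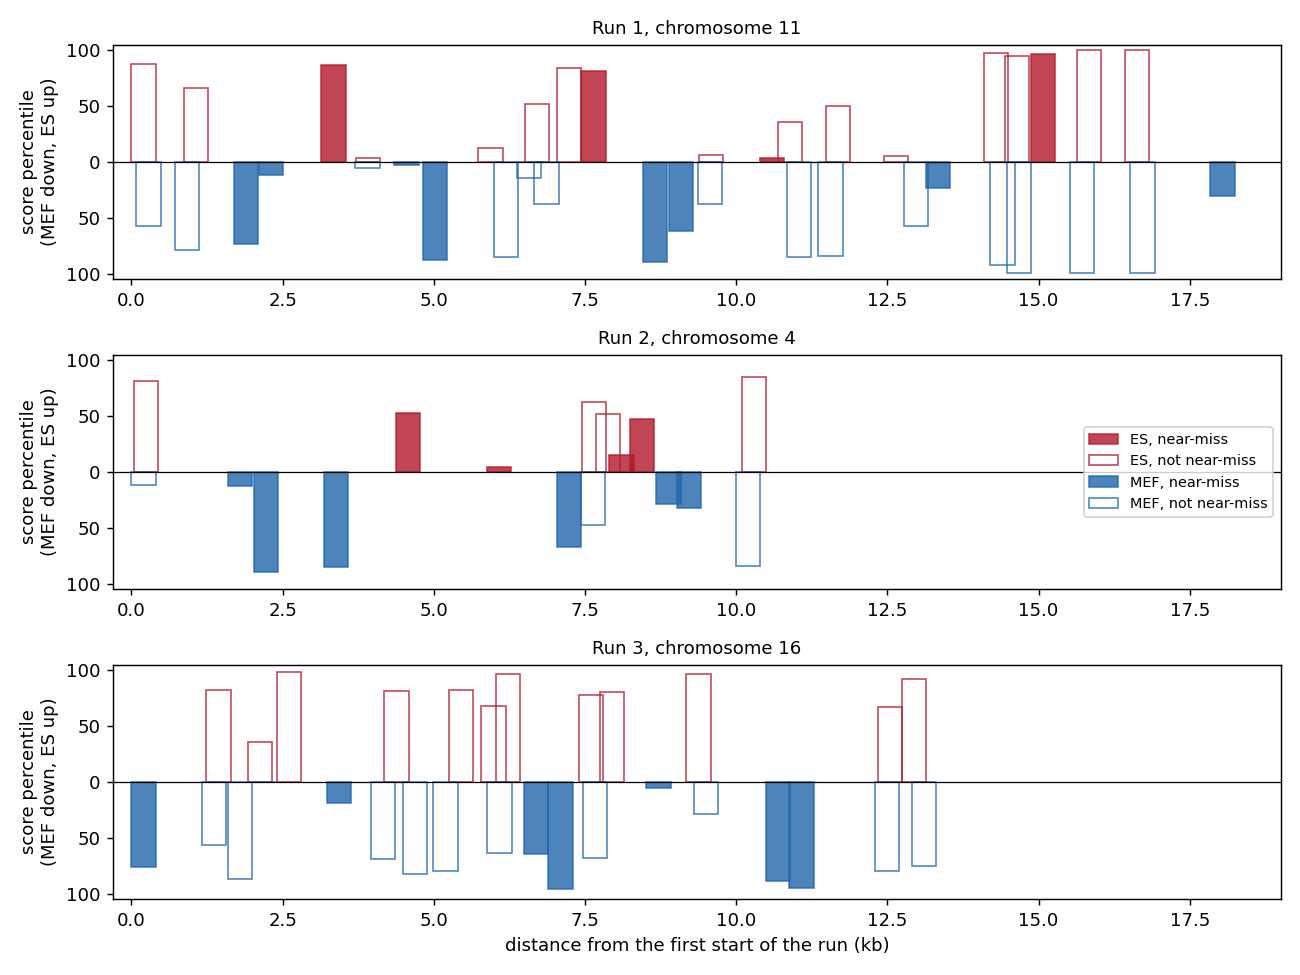
Peaks of the 3 runs with most near-miss peaks, drawn at their width along the run (kb from its first start), with the score percentile within the own list as height, ES upward and MEF downward; filled bars are near-miss peaks. The runs hold 12, 10 and 7 near-miss peaks among 40, 17 and 30 peaks, and the filled bars span the whole range of percentiles, from 2.75 to 96.2 in the first run.

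The 5 highest-scoring ES members had partners above the median partner of ES members, which stood at the 52.9 percentile. The ES member on chromosome 3 at 88271038 to 88271436 had a score of 389, at the 99.7 percentile, and its MEF partner 1028 bp away scored 55, at the 60.6 percentile. An ES peak on chromosome 10 at 80485515 to 80485913 scored 364, and a MEF peak at the 69.4 percentile lay 549 bp away. The third, with a score of 356, spanned 127897419 to 127897817 of chromosome 7, beside a shared MEF peak 761 bp away at the 78.0 percentile. The other two both scored 336. One, on chromosome 15 at 80536516 to 80536914, had a partner 1751 bp away at the 70.4 percentile. For the other, which spanned 11091364 to 11091762 of chromosome 4, the partner was 626 bp away at the 86.1 percentile. Only the chromosome 7 peak among these 5 had a shared partner.

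Of the 5 highest-scoring MEF members, 3 stood beside a shared ES peak. The first of them, at 74775716 to 74776114 of chromosome 7, scored 283 and had its partner 1553 bp away. Another, at 86710324 to 86710722 of chromosome 8, scored 254 with a partner at 980 bp. The last, at 81209350 to 81209748 of chromosome 12, scored 247 with a partner at 576 bp. The chromosome 12 partner ranked highest of them, at the 94.6 percentile of the ES list. The other two MEF peaks had ES partners of low rank. One, spanning 33105318 to 33105716 of chromosome 4 and scoring 344, had an ES partner 470 bp away at the 25.1 percentile. The second, spanning 5727749 to 5728147 of chromosome 19 and scoring 311, had one 1573 bp away at the 9.20 percentile.

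The 149 reciprocal pairs with both peaks in the highest 25% had a median distance of 991 bp (quartiles 655 and 1392 bp), against 1011 bp (669 and 1444 bp) for all 2984. The leading pair was on chromosome 17, where the ES peak at 29306116 to 29306514 (97.7 percentile) and its MEF partner (97.6 percentile) were 1925 bp apart. On chromosome 11 an ES peak at 40281646 to 40282044 and a MEF peak 1176 bp away stood at percentiles of 96.6 and 97.8, and only 4 other peaks lay within 100 kb. The following pairs were on chromosome 13 at 107890176 (1494 bp apart), chromosome 9 at 107641264 (930 bp) and chromosome 3 at 102853966 (574 bp), each named by the start of the ES peak. The partners in all 5 pairs were not shared, which the definition of a reciprocal pair of members requires.

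Members were unevenly spread over the megabases. Of 2406 autosomal windows of 1 Mb with a peak, 1578 held a member. The 241 windows with most members held 41.5% of all members and 24.2% of all autosomal peaks, a contrast that choosing windows by their members favours. The leading window was chromosome 15 from 76000001 to 77000000, with 39 members among 70 ES and 82 MEF peaks. The windows on chromosome 11 from 3000001 to 4000000 and from 97000001 to 98000000 held 38 members each, which was 25.9% and 27.5% of their peaks, against 10.1% over all windows.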

How the data were processed

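CTCF was mapped by chromatin immunoprecipitation and sequencing in ES cells and MEFs, 1 library each, so the groups are single samples. Per the labels, libraries were made from sonicated nuclei and sequenced on an Illumina Genome Analyzer, and the submitters' processing notes name mm9. The sources used here do not name the aligner, the peak caller, its threshold or any input. The authors deposited 1 peak list per library, with a whole-number score per peak that is not defined, used here only for the limit of 400 and for ranks within a list. Read depth is unknown. Every peak spans 399 bp, so distances between starts decide overlap (at least 1 bp), and overlap counts were checked with bedtools 2.31.1. Starts of 1 list lie at least 201 bp apart. If the deposited starts already count from 1, printed starts lie 1 base too far right.

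Near misses were found as the rule in the text states, in the deposited lists and after moving the other list by 10 kb and 20 kb. Intervals are Wilson for percentages, exact binomial (Clopper-Pearson) for ratios and order-statistic for medians. Counting code was tested on simulated lists. Named positions are the 5 highest-scoring members of each list, the 5 reciprocal pairs with the highest lower percentile, the 3 runs (ties by number of peaks) and the 3 windows of 1 Mb with most members, and the edges of the rule. A further run on chromosome 7 was chosen after its values were seen. The members, rule and alternatives were chosen with earlier results of these data known. Sequence, motifs and gene names were not analysed here, because the tables at hand follow another build. Analyses used Python 3.11.15 with scipy 1.17.1, numpy 2.4.6, pandas 2.3.3 and, for figures, matplotlib 3.10.9.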

Additional observations from a re-analysis of the deposited data

Results flagged for a closer look

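Peaks outside the autosomes were not among the members above, though they entered the totals of the lists and the ranks behind the percentiles. Each group of such peaks with more than 3 near misses is given here. On chromosome X, 47 ES peaks (7.13% of the 659 with no MEF start nearer than 400 bp) and 59 MEF peaks (4.73% of 1248) met the distance and score rule. On random and unplaced sequences, 13 ES peaks and 14 MEF peaks lay 400 to 2000 bp from a peak of the other list, with no score limit.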

How the results depend on the processing

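Values were recomputed under 54 alternatives. In 28 the value remained inside the main counting interval, or for numbers within 1.5 times, and in 26 it did not. Each of the 30 alternative ratios to a moved list was above 1, from 1.05 to 1.85. In the higher-scoring 50% of both lists there were 1524 ES and 1637 MEF members, the MEF ratio was 1.43, partners were shared at 26.4% (ES) and 30.4% (MEF), and 37.4% and 41.4% of members had a neighbour in their own list. Merging overlapping peaks of 1 list gave 40.8% and 41.9% for the latter. Moves of 50 kb gave ratios of 1.53 (ES) and 1.47 (MEF), and moves of 20 kb up and down gave 1.38 and 1.40 for MEF. All pairs in place of nearest starts gave 1.85 and 1.79. An overlap of 50% of both peaks gave shared partners at 27.6% and 27.8%. With no shared peak within 5 kb the pair ratio was 1.52. Among alternatives chosen after seeing the data, plain numbers against the upward 10 kb move gave 1.05 (ES) and 1.05 (MEF). The other ratios so chosen were starting only from peaks without overlap (1.49 and 1.44) and narrower distances. Distances of 400 to 999 bp gave 1.69 and 1.53, and distances of 1000 to 2000 bp gave 1.21 and 1.17. No paired analysis was possible because there is a single library on either side. The depth of the reads is not known, and its part in the numbers of near misses was not tested.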
